A study of Mus musculus with 9 samples.

Results

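The genes described here are 8 surface and metabolic genes by which resident tissue macrophages are recognised: *Cd163*, *Mrc1*, *Lyve1*, *Timd4*, *Folr2*, *Stab1*, *Mertk* and *Cbr2*. They were listed by name, with no threshold on a measured value but with earlier results of these data known, and are 8 of the 23747 genes in the tables. Their expression was followed in nuclei of the mouse heart, by cell type and by group. The heart below the ligature, or the same part of a sham heart, was profiled by single-nucleus RNA sequencing, which reads a nuclear barcode with each captured transcript and counts transcripts as unique molecular identifiers (UMIs). All 9 mice were C57BL/6, supplied at 8 weeks of age and acclimatised for a week, and were gavaged for at least 7 days before surgery. The 3 sham mice received vehicle (sodium carboxymethyl cellulose) and an operation without ligation. The 3 I/R mice received vehicle, followed by 30 min of ischemia and 24 h of reperfusion. The 3 SBP mice received Shexiang Baoxin Pill, also called MUSKARDIA, followed by the same ischemia and reperfusion. The samples are separate mice. No group received the pill without ischemia, so an action of the pill on the uninjured heart was not measured.

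Resident macrophages settle in the heart early in life, renew themselves there and take up dying cells, debris and haemoglobin. CD163 binds the haptoglobin-haemoglobin complex, the mannose receptor encoded by *Mrc1* binds mannose-bearing glycoproteins, and stabilin-1, the product of *Stab1*, is an endocytic receptor for modified lipoproteins and matrix proteins. LYVE1 binds hyaluronan and is also a classical marker of lymphatic endothelium. TIM-4, encoded by *Timd4*, binds phosphatidylserine on apoptotic cells directly, whereas the kinase MERTK binds them through the bridging proteins GAS6 and protein S. *Folr2* encodes folate receptor beta. *Cbr2* encodes carbonyl reductase 2, an enzyme and not a receptor, although it is a common marker of the same macrophages.

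The 9 samples held 49171 nuclei, fewer than the study states, with 10329520 to 18205985 UMIs per sample and a median of 1540 to 2031 UMIs per nucleus. Pairs of samples shared between 4 and 14 nuclear barcodes, at most 0.251% of the nuclei of the smaller sample. In the study's read counts, each sham library had far fewer low-quality reads than each I/R or SBP library. Its GC content before trimming was also lower. The sample labels name no batch. A technical difference between libraries therefore cannot be told apart from injury in any comparison with sham below. The 8 genes themselves differed widely in depth. Over all samples *Mrc1* had 56574 UMIs, *Mertk* 28717, *Stab1* 27422, *Cd163* 12165, *Lyve1* 2796, *Cbr2* 2647, *Folr2* 838 and *Timd4* 831. Values for *Folr2* and *Timd4* therefore rested on the fewest molecules. These totals count 3′ ends and do not rank the genes against each other.

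Nuclei were clustered without the 8 genes, and clusters were named from other markers, so that the levels below did not define the classes. A name such as resident-like stands for nuclei that resemble the type. The resident-like class held 4241 nuclei, made up of myeloid clusters 1, 3 and 4. Cluster 4 was led by *Fat3*, *Cp*, *Hif3a* and the stress gene *Tnfaip3*. It held 14 sham, 501 I/R and 172 SBP nuclei. Resident-like values of the injured groups therefore include a cluster that was nearly absent from sham. Levels by cell type are given as class CPM, UMIs of the gene per 1000000 UMIs of the class, averaged over the mice that had at least 20 nuclei of it, and are a description of rebuilt classes without a test.

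The label of resident macrophage genes fitted 5 of the 8 by their level. *Cd163*, *Mrc1*, *Timd4*, *Folr2* and *Cbr2* had their highest mean level in resident-like macrophages. *Lyve1* was highest in lymphatic-like endothelial nuclei, and *Stab1* and *Mertk* were highest in injury-like macrophages, a class named from genes such as *Spp1*, *Arg1* and *Gpnmb*. For *Mertk* the injury-like and resident-like values were close and overlapped. The classes that were not resident-like reached 20 nuclei in different numbers of mice (6 for injury-like and monocyte-like, 5 for cycling-like).

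*Cd163* did not overlap with the class that came next by mean level. It had 1128 ± 310 class CPM (SD, n = 9) in resident-like macrophages, against 352 ± 135 (n = 5) in cycling-like and 313 ± 250 (n = 6) in injury-like myeloid nuclei. The lowest resident-like mouse, at 575, lay above the highest cycling-like mouse, at 489.8. The resident-like and injury-like ranges overlapped over mice, although the resident-like level was the higher one in 6 of 6 mice that had both. Cycling-like, injury-like and neutrophil-like nuclei, the next in the order, had values that overlapped with each other. *Mrc1* had 3819 ± 629 class CPM in resident-like macrophages, 3032 ± 618 in cycling-like, 2455 ± 1060.3 in injury-like and 1412 ± 894 in monocyte-like nuclei. Its ranges overlapped between each of these neighbours, although the resident-like level was the higher one in 5 of 5 mice that had cycling-like nuclei as well. *Stab1* reversed this order. It had 1586 ± 194 class CPM in injury-like macrophages and 1055 ± 159 in resident-like macrophages, without overlap and with the injury-like level higher in 6 of 6 mice.

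The receptors for apoptotic cells differed in how far they reached beyond the resident-like class. *Timd4* had 81.4 ± 22.0 class CPM in resident-like and 3.5 in injury-like macrophages. Dendritic cell-like nuclei came second for *Timd4* with 40.4 ± 70.0 over 3 mice, 2 of which had no UMI of the gene, and the ranges overlapped. *Mertk* had 1209 ± 322 class CPM in injury-like and 1117 ± 300.2 in resident-like macrophages, a pair that overlapped, with the injury-like level higher in 4 of 6 mice. These means are over unlike sets of mice. In the 6 mice with both classes the medians were 1128 in injury-like and 1123 in resident-like macrophages. *Mertk* reached 714 ± 255 in monocyte-like nuclei and 368 ± 94.3 in arterial-like endothelium.

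*Lyve1* was the only one of the 8 genes with its highest mean outside the myeloid classes. Lymphatic-like nuclei had 267 ± 78.2 class CPM and resident-like macrophages 141 ± 64.8, and the lymphatic-like level was the higher one in 9 of 9 mice, although the ranges over mice overlapped. Endocardial-like nuclei had 49.2 ± 31.3. *Stab1* was also present in lymphatic-like (599 ± 117) and endocardial-like (266) nuclei. *Folr2* had 51.5 ± 17.6 class CPM in resident-like macrophages and overlapped with cycling-like (28.8 ± 16.4) and injury-like (24.0 ± 12.2) nuclei. *Cbr2* had 236 ± 83.1 in resident-like, 104 ± 82.1 in cycling-like and 33.9 ± 13.6 in injury-like nuclei, and its resident-like and cycling-like values overlapped.

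**Figure D1:**
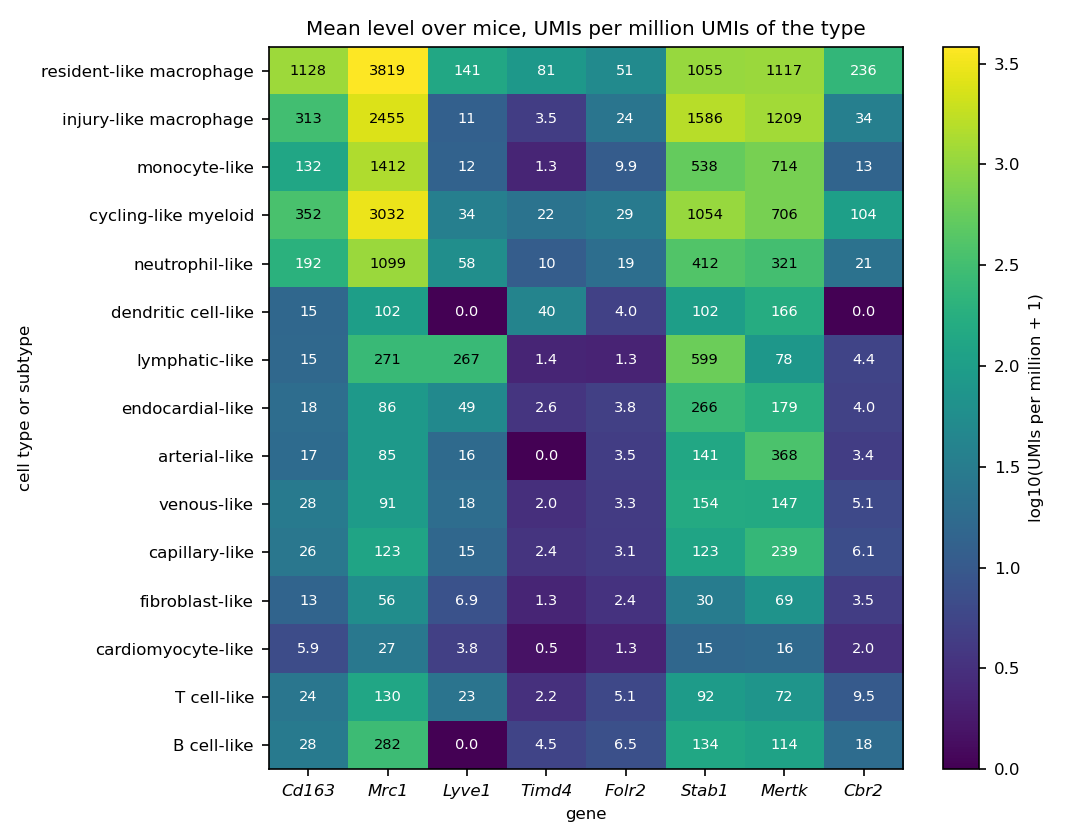
Mean level of each gene (columns) in each cell type or subtype (rows) over mice with at least 20 nuclei, in class CPM, with colour on a log10 scale. Resident-like macrophages hold the highest value for 5 genes, injury-like macrophages for *Stab1* (1586) and *Mertk* (1209), and lymphatic-like nuclei for *Lyve1* (267).

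Cardiomyocyte-like nuclei, which should lack these genes, served to gauge free RNA. A UMI of *Cd163* was found in 55.3% of resident-like nuclei and in 2.70% of cardiomyocyte-like nuclei. Median depth was 1615 UMIs in the first class and 4438 in the second. After every nucleus with at least 1000 UMIs was thinned to 1000, and those with fewer were left out, the shares were 46.7% and 0.704%. For *Mrc1* the thinned shares were 85.0% and 3.07%, for *Stab1* 57.8% and 1.98%, for *Mertk* 58.5% and 1.77%, and for *Cbr2* 20.4% and 0.276%. *Lyve1*, *Timd4* and *Folr2* were found in few nuclei even of the resident-like class (10.5%, 6.73% and 5.03% after thinning, and 16.7%, 11.1% and 8.80% before). Their shares in thinned cardiomyocyte-like nuclei were 0.504%, 0.0571% and 0.219%. The unthinned cardiomyocyte-like shares were 11.8% for *Mrc1*, 6.98% for *Stab1*, 7.39% for *Mertk*, 1.06% for *Cbr2*, 1.84% for *Lyve1*, 0.266% for *Timd4* and 0.694% for *Folr2*.

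The classes that carried the UMIs of a gene changed between groups. Of all *Stab1* UMIs, resident-like macrophages held 57.4%, 21.2% and 29.5% in the order sham, I/R and SBP, while other myeloid nuclei held 1.5%, 60.1% and 44.0%. *Mertk* had a shift in the same direction, with 53.6%, 24.7% and 29.4% in resident-like macrophages and 1.8%, 54.5% and 38.3% in other myeloid nuclei. For *Mrc1* resident-like macrophages held 81.0%, 42.3% and 52.4%. Of the *Timd4* UMIs they held 73.0%, 77.3% and 79.4%. For *Cd163* they held 83.9%, 66.1% and 74.8%, for *Cbr2* 82.9%, 55.9% and 67.5%, for *Folr2* 68.2%, 36.1% and 42.5%, and for *Lyve1* 45.8%, 33.1% and 38.3%. These shares pool 3 mice and follow the number of nuclei of each class as well as the level in them.

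**Figure D2:**
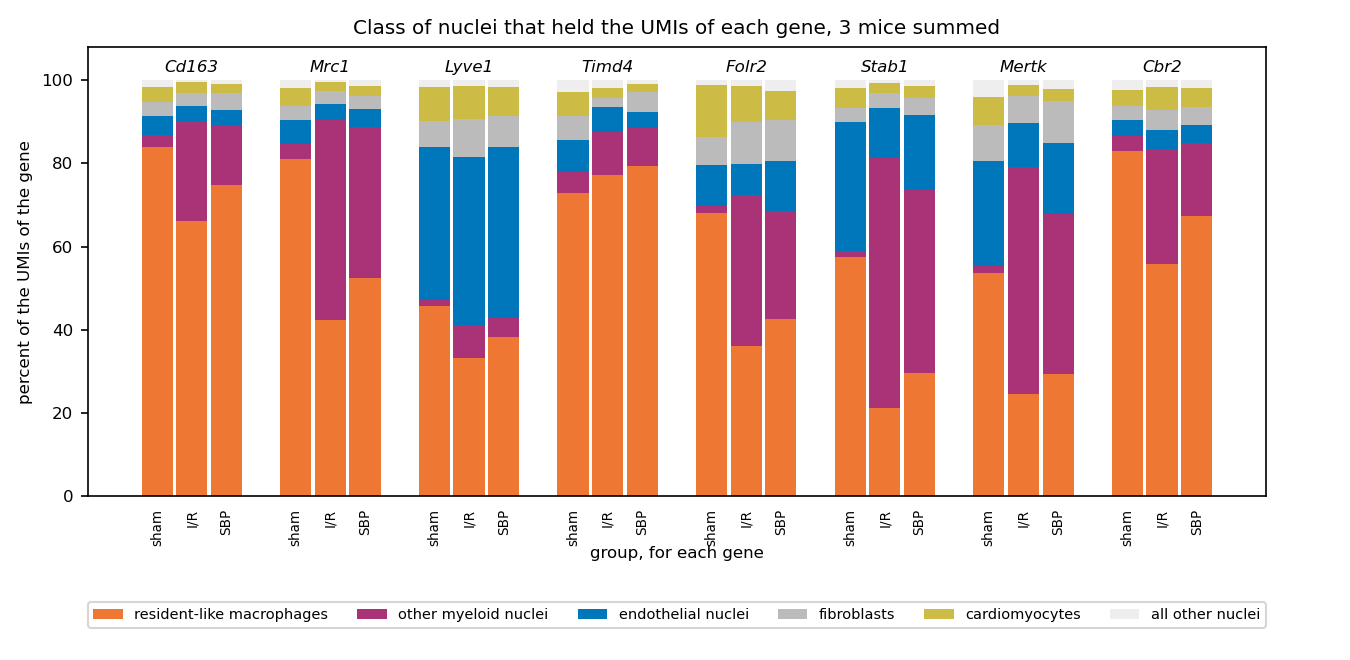
Percentage of the UMIs of each gene held by each class of nuclei in sham, I/R and SBP (stacked bars, 3 mice summed). Nuclei that were myeloid but not resident-like held 60.1% of *Stab1* and 54.5% of *Mertk* UMIs in I/R, while the resident-like share of *Timd4* stayed between 73.0% and 79.4%.

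The 3 resident-like clusters differed in the members they carried. Within the same mice, cluster 1 was above cluster 3 for *Cd163* in 8 of 8 mice (median ratio 2.30), for *Timd4* in 8 of 8 (3.38), for *Cbr2* in 8 of 8 (2.35) and for *Lyve1* in 7 of 8 (4.72). *Mrc1* (1.82), *Stab1* (1.53) and *Folr2* (3.35) were also higher in cluster 1 in 8 of 8 mice, and *Mertk* in 7 of 8 (1.35). Cluster 1 exceeded cluster 4 in 6 of 6 mice for *Cd163* (3.46), *Lyve1* (5.87), *Cbr2* (2.28), *Mrc1* (1.58) and *Mertk* (1.21), and in 5 of 6 for *Timd4* (6.84), whereas *Stab1* was higher in cluster 1 in 2 of 6 mice and *Folr2* in 3 of 6. These ratios describe clusters of the same nuclei and were not tested. In the 8 mice with clusters 1 and 3, cardiomyocyte markers (such as *Ttn*, *Myh6* and *Ryr2*) summed higher in cluster 3 in each mouse. The sums were 3735 to 12468 class CPM in cluster 3 and 2021 to 6648 in cluster 1. The part of these transcripts in the ratios was not tested.

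The resident-like class was drawn from different clusters in the 3 groups. In sham, cluster 3 held 54.3% of its nuclei, cluster 1 held 45.0% ± 10.3 and cluster 4 held 0.725%. In I/R the values were 10.2%, 51.7% ± 37.9 and 38.2%, and in SBP 17.4%, 68.0% ± 1.57 and 14.6%. I/R replicate 2 stood apart with 382 of its 429 resident-like nuclei in cluster 4 and 40 in cluster 1. Resident-like macrophages were 90.7% ± 3.12 of the myeloid nuclei in sham. In I/R the mice had 16.8%, 30.5% and 53.3%, and in SBP 56.0%, 27.5% and 51.7%, each below the sham mice in these classes. The exact permutation p (two-sided) was 0.1 for I/R and for SBP against sham, the smallest that 3 mice against 3 allow, and 0.6 for SBP against I/R. Of all nuclei of the heart they were 10.5% ± 3.00, 8.02% ± 1.86 and 7.34% ± 0.432 (exact permutation p 0.4, 0.6 and 0.2 for I/R against sham, SBP against I/R and SBP against sham). The size of these differences depended on the naming of clusters. With finer subclusters the myeloid share was lower than sham by 26.7 percentage points in I/R, against 57.2 in the classes used here, with 64.2%, 47.5% and 64.0% in sham, 15.3%, 29.4% and 50.8% in I/R and 53.4%, 26.2% and 49.7% in SBP. The groups then overlapped (exact permutation p 0.2 for I/R and 0.3 for SBP against sham, two-sided), and the share of all nuclei turned from lower to higher than sham in both injured groups. Finer subclusters leave 1 cluster with cardiomyocyte transcripts (described next) unnamed but still count it as myeloid. With its nuclei out of both counts, the myeloid share differed from sham by -53.3 points in I/R and -41.9 in SBP (exact permutation p 0.1 for each, two-sided).

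Cardiomyocyte transcripts were found across the resident-like class and led 1 finer subcluster, whose nuclei came mostly from sham. The subcluster had 704 nuclei, 611 of them from sham. It was led by the sarcomere and muscle genes *Hrc*, *Ckm*, *Actc1*, *Myl2* and *Tnni3* and therefore had no name, although resident macrophage markers scored highest in it. It held 27.9%, 45.7% and 30.6% of the resident-like nuclei of the sham mice, 6.46%, 1.40% and 3.44% in I/R, and 3.00%, 4.06% and 3.93% in SBP. The 7 cardiomyocyte markers (such as *Ttn*, *Myh6* and *Ryr2*) were all found in the resident-like class of each mouse, with summed levels of 6390 to 7853 class CPM in sham, 1828 to 3843 in I/R and 2226 to 2780 in SBP. Without these nuclei the sums were still higher in sham, at 5476 to 7437, against 1743 to 3420 and 1832 to 2410. Cardiomyocytes themselves had 35619 to 60233. In sham, resident-like cluster 3 had sums of 7420 to 8770 with 12.3% of its nuclei in the subcluster. Cluster 1 had 5068 to 6648 with 66.8% of its sham nuclei in the subcluster. The part of cardiomyocyte transcripts in the differences to sham was not tested. The fits of myeloid nuclei and resident-like macrophages are also given without the nuclei of this subcluster, a choice made after the data were seen. Below they are called nuclei that carried cardiomyocyte transcripts, although the other nuclei held such transcripts too. Leaving them out also changed the mix of resident-like clusters in sham, with values given below.

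The first comparison asked whether the 8 genes changed in the myeloid compartment as a whole after I/R. UMIs of all myeloid nuclei of a mouse were summed and scaled with TMM factors to 1000000 per library (CPM), and limma was fitted to log2(CPM + 1) over all 9 mice. Calls required an adjusted p (Benjamini-Hochberg, over all genes tested) no higher than 0.05 together with an absolute log2 difference above 0.25. *Timd4*, *Folr2* and *Cbr2* fell in I/R, and *Timd4* alone of them was still called without the nuclei that carried cardiomyocyte transcripts. The other 5 genes were not called in either fit. That was 3 of 8 members, all lower, while 17.4% of the 10906 genes tested were called, and 8.18% of the genes tested were called lower. The groups did not overlap for 4 of 8 members (the 3 called genes and *Mertk*), against 34.8% of all genes.

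*Timd4*, the direct receptor for phosphatidylserine, had 83.1, 106 and 80.3 CPM in the sham mice (replicates 1 to 3), 10.6, 25.5 and 27.3 in I/R, and 46.2, 23.9 and 61.0 in SBP. All I/R mice lay below all sham mice, and the SBP mice ran from 23.9, within the I/R range, to 61.0, below each sham mouse. The fall in I/R was 2.13 on the log2 scale (SE 0.38, limma adjusted p 0.00394), or 4.37-fold. Without the nuclei that carried cardiomyocyte transcripts the log2 difference was -1.53 (limma adjusted p 0.0174). *Cbr2*, the carbonyl reductase, had 353, 209 and 283 CPM in sham, 61.4, 39.2 and 153 in I/R, and 151, 82.1 and 124 in SBP. It fell by 1.92 on the log2 scale in I/R (SE 0.45, limma adjusted p 0.0191). The call of *Cbr2* was lost without sham replicate 1, sham replicate 3 or I/R replicate 1 (adjusted p up to 0.0703), and without the nuclei that carried cardiomyocyte transcripts (log2 -1.48, limma adjusted p 0.0719). *Folr2*, the folate receptor, had 53.8, 71.9 and 49.6 CPM in sham, 22.1, 22.0 and 32.6 in I/R, and 35.0, 25.1 and 23.0 in SBP. It was the only member called lower than sham in both injured groups. Its log2 difference was -1.17 in I/R (SE 0.24, limma adjusted p 0.00600) and -1.06 in SBP (SE 0.24, limma adjusted p 0.0135), where 12.4% of all genes were called and 5.61% were called lower. The SBP call was lost without sham replicate 2, SBP replicate 2 or SBP replicate 3 (adjusted p up to 0.0612), and with cell types from marker scores. Without the nuclei that carried cardiomyocyte transcripts neither call of *Folr2* was kept (log2 -0.69, limma adjusted p 0.0732, in I/R and -0.57, limma adjusted p 0.148, in SBP). *Folr2* shares 2784 bases with the annotated antisense gene *Gm10602*. The strand used in counting is not given in the sources used here, so reads from the pair may not be separable.

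The promoters of these 3 genes are given below, as 250 bases before to 50 bases after the start in the RefSeq annotation of GRCm38.p6, 5′ to 3′ on the strand of the gene. Capitals mark matches to the motifs searched on both strands. These were the core of the MAF recognition element (TGCTGAC, or GTCAGCA on the other strand), PU.1 (GAGGAAG), AP-1 (TGANTCA) and the A/T-rich MEF2 motif.
Timd4, chr11:46810549-46810848, plus strand: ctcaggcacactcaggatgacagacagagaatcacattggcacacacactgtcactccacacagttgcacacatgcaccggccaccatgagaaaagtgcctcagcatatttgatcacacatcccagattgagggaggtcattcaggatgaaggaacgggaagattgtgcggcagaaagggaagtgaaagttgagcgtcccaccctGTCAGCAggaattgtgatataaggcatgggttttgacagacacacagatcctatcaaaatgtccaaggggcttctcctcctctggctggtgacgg
Cbr2, chr11:120731972-120732271, minus strand: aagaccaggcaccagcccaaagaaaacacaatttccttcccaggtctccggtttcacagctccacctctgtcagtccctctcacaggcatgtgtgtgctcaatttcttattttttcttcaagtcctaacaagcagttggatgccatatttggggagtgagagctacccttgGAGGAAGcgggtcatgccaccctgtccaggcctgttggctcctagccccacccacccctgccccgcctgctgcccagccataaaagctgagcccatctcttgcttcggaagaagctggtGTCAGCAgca
Folr2, chr7:101845282-101845581, minus strand: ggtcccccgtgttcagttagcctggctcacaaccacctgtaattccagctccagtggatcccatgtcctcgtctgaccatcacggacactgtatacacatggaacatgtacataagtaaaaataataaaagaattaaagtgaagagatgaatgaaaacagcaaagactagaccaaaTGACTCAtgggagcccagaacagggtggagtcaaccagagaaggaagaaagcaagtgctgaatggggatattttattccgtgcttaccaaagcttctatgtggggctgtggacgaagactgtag
The MAF core was found in *Timd4*, 45 to 39 bases before the start, and in *Cbr2*, 40 to 46 bases after it, on the reverse strand of each. *Cbr2* also held a PU.1 match 79 to 73 bases before the start. One of the 2 *Folr2* starts held an AP-1 match 74 to 68 bases before the start, a pattern that is matched on both strands. That window, the one given here, lies inside the annotated gene. The other, at chr7:101857141-101857440, spans the 5′ end of the annotated gene and is not given. Of 32851 promoters of this length, 4.67% held the MAF core, 13.6% PU.1, 7.81% AP-1 and 0.557% MEF2. Sequences were matched for 7 of the 8 genes, all except *Lyve1*. Among the other windows, *Mrc1* held 2 PU.1 matches. No motif was matched in *Cd163*, *Stab1*, *Mertk* or the other *Folr2* window. A match is a description of letters, and no match says only that these letters are not in the window.

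Of the remaining 5 genes, *Cd163*, *Mrc1* and *Lyve1* had overlapping groups. *Cd163* had 1225, 500.0 and 939.8 CPM in sham, 220.5, 684 and 966 in I/R, and 896, 321 and 524 in SBP, with overlap between all groups. *Mrc1* had 3979, 2578 and 3378 CPM in sham, 1430.3, 3550.3 and 3769 in I/R, and 3011, 1896 and 2923 in SBP. I/R replicate 1 was the lowest I/R mouse for both genes. *Lyve1* had 166, 44.2 and 93.4 CPM in sham, 18.4, 55.4 and 95.5 in I/R, and 149, 30.2 and 119 in SBP. The log2 differences of I/R to sham were -0.66 for *Cd163* (95% interval -2.04 to 0.72), -0.29 for *Mrc1* (-1.06 to 0.49) and -0.92 for *Lyve1* (-2.72 to 0.88), intervals that leave both rises and falls possible. *Stab1* had 968, 766 and 951 CPM in sham, 1241, 778 and 1301 in I/R, and 1075, 1034 and 1171 in SBP (log2 0.28 for I/R against sham, limma adjusted p 0.364). *Mertk* had 1140.2, 469 and 1076 CPM in sham, 1272, 1155 and 1401 in I/R, and 892, 850.1 and 865 in SBP. Each I/R mouse was above each sham mouse for *Mertk*, but the test was not passed (log2 0.61, SE 0.28, limma adjusted p 0.155), and without sham replicate 2 the difference was 0.20. Without I/R replicate 1 that of *Cd163* was -0.038 and that of *Mrc1* turned to 0.16.

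**Figure D3:**
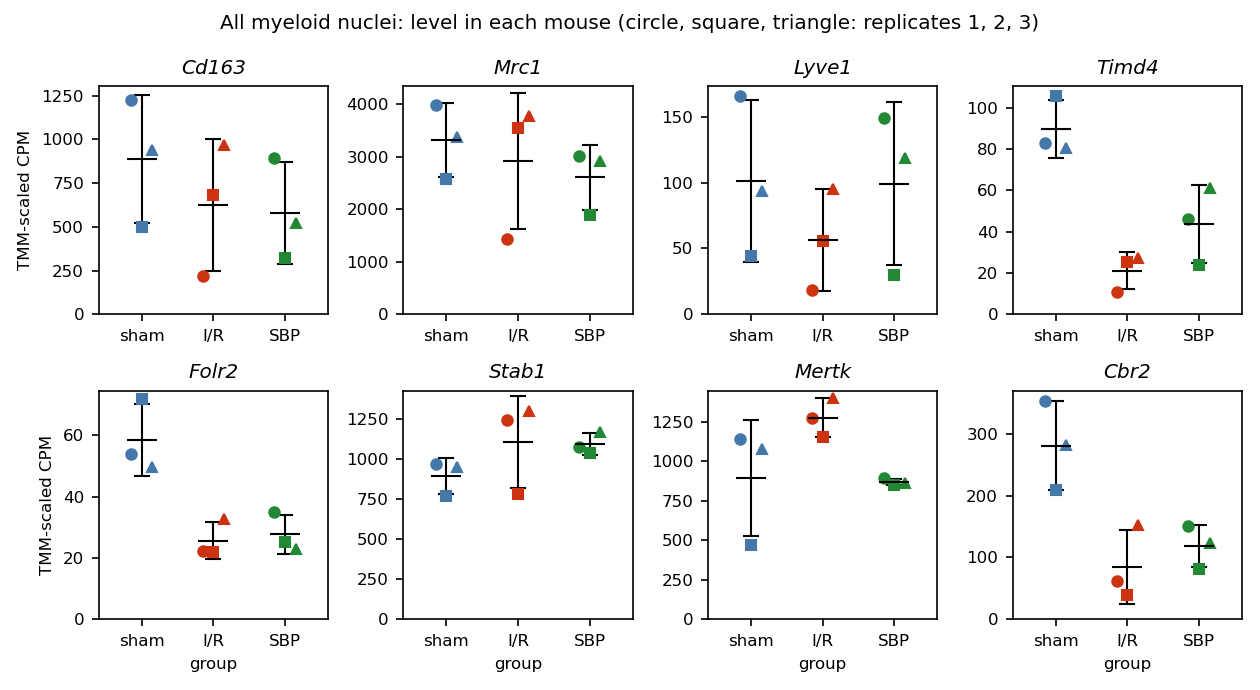
TMM-scaled CPM of the 8 genes in all myeloid nuclei of each mouse (points; circle, square and triangle are replicates 1, 2 and 3), with the group mean and SD (bars). The 3 I/R mice lie below the 3 sham mice for *Timd4*, *Folr2* and *Cbr2* and above them for *Mertk*, and the sham and I/R mice overlap for the other 4 genes.

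The second comparison asked whether the pill given before injury altered these genes. No member was called in SBP against I/R in myeloid nuclei. Limma called 0 of 10906 genes (0%), and 429 had an unadjusted p under 0.05. Limma with voom weights called none of the members either. *Timd4* alone among the members had an unadjusted p under 0.05 (log2 1.02 higher in SBP, 95% interval 0.18 to 1.86, p 0.0217, limma adjusted p 1.00). *Mertk* was lower in each SBP mouse than in each I/R mouse (log2 -0.55, 95% interval -1.16 to 0.06), where 9% of all genes had groups without overlap. For *Folr2* the difference was 0.11 (95% interval -0.41 to 0.63), for *Stab1* 0.02 (-0.41 to 0.45) and for *Cbr2* 0.68 (-0.34 to 1.69), intervals that hold changes in either direction.

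The mix of myeloid nuclei moved with these values. Resident-like macrophages were 90.7%, 33.6% and 45.1% of the myeloid nuclei of sham, I/R and SBP, injury-like macrophages 0.394%, 33.0% and 28.6%, and monocyte-like nuclei 1.03%, 22.2% and 16.4%. Cardiomyocyte markers summed to 6284 to 7841 class CPM in the myeloid nuclei of sham mice, 1875 to 2953 in I/R and 2042 to 2674 in SBP. The part of this mix in the myeloid differences was not tested. The values within the resident-like class follow.

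Within resident-like macrophages, none of the 8 genes was called in I/R against sham (3.37% of 9690 genes were called), and limma with voom weights called none. *Timd4* and *Cbr2* had an unadjusted p under 0.05. *Timd4* had 92.0, 118 and 79.0 CPM in sham, 54.2, 71.6 and 52.9 in I/R, and 83.8, 79.8 and 100.4 in SBP. The I/R mice lay below both other groups without overlap. Sham and I/R had no overlap for 22.8% of all genes. Its log2 difference in I/R against sham was -0.68 (95% interval -1.12 to -0.24, limma adjusted p 0.0822), against -2.13 in all myeloid nuclei. *Cbr2* had 399, 226 and 296 CPM in sham, 175, 104 and 252 in I/R, and 246, 206 and 216 in SBP (log2 -0.84, 95% interval -1.47 to -0.22, limma adjusted p 0.129), and the groups overlapped. *Folr2* had 63.3, 80.8 and 52.7 CPM in sham, 62.5, 38.5 and 36.4 in I/R, and 39.0, 56.2 and 31.1 in SBP (log2 -0.53 for I/R against sham, limma adjusted p 0.324). With cell types from marker scores in place of clusters, *Timd4* and *Cbr2* were called lower in I/R and *Folr2* lower in SBP than in sham. Without I/R replicate 3, *Cbr2* was called. Without the nuclei that carried cardiomyocyte transcripts, the difference of *Timd4* in I/R against sham was -0.05 (limma adjusted p 0.937), that of *Cbr2* -0.41 and that of *Folr2* -0.12. With finer subclusters, which leave the same cluster out, *Timd4* turned to 0.08 (limma adjusted p 0.897). Leaving out the nuclei that carried cardiomyocyte transcripts took 486 of 728 sham nuclei of cluster 1, but 119 of 965 of cluster 3. In I/R it took 14 of 740 and 36 of 127. Of these clusters, cluster 1 had the higher levels of *Timd4*, *Cbr2* and *Folr2*. The part of this change of mix in the differences was not tested.

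The other 5 genes had mean log2 levels in I/R that were above sham, with no call. *Cd163* had 1389.9, 546 and 983 CPM in sham, 1099, 1324 and 1605 in I/R, and 1309, 1038 and 884 in SBP (log2 0.55 for I/R against sham, 95% interval -0.09 to 1.19, limma adjusted p 0.349). *Mrc1* had 4467, 2806 and 3507 CPM in sham, 3211, 4936 and 4539.5 in I/R, and 3682, 3672 and 3632 in SBP (log2 0.24, 95% interval -0.19 to 0.67). Sham replicate 2 had the lowest value of its group for both genes. *Stab1* had 1108, 872 and 992 CPM in sham, 1152, 761 and 1224 in I/R, and 1046, 1168 and 1167 in SBP (log2 0.05, 95% interval -0.35 to 0.45). *Mertk* had 1286, 516 and 1125 CPM in sham, 1163, 1589 and 1446 in I/R, and 966, 914 and 1082 in SBP (log2 0.61, limma adjusted p 0.264). Without sham replicate 2 the differences were 0.18 for *Mertk*, 0.16 for *Cd163* and 0.048 for *Mrc1*. *Lyve1* had 192, 47.1 and 98.4 CPM in sham, 93.1, 118 and 174 in I/R, and 246, 96.7 and 212 in SBP, and all groups overlapped. The direction of *Lyve1* and *Stab1* turned without sham replicate 2 (-0.17 and -0.058) and with cell types from marker scores (-0.31 and -0.012), and that of *Stab1* also without I/R replicate 1 or 3.

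**Figure D4:**
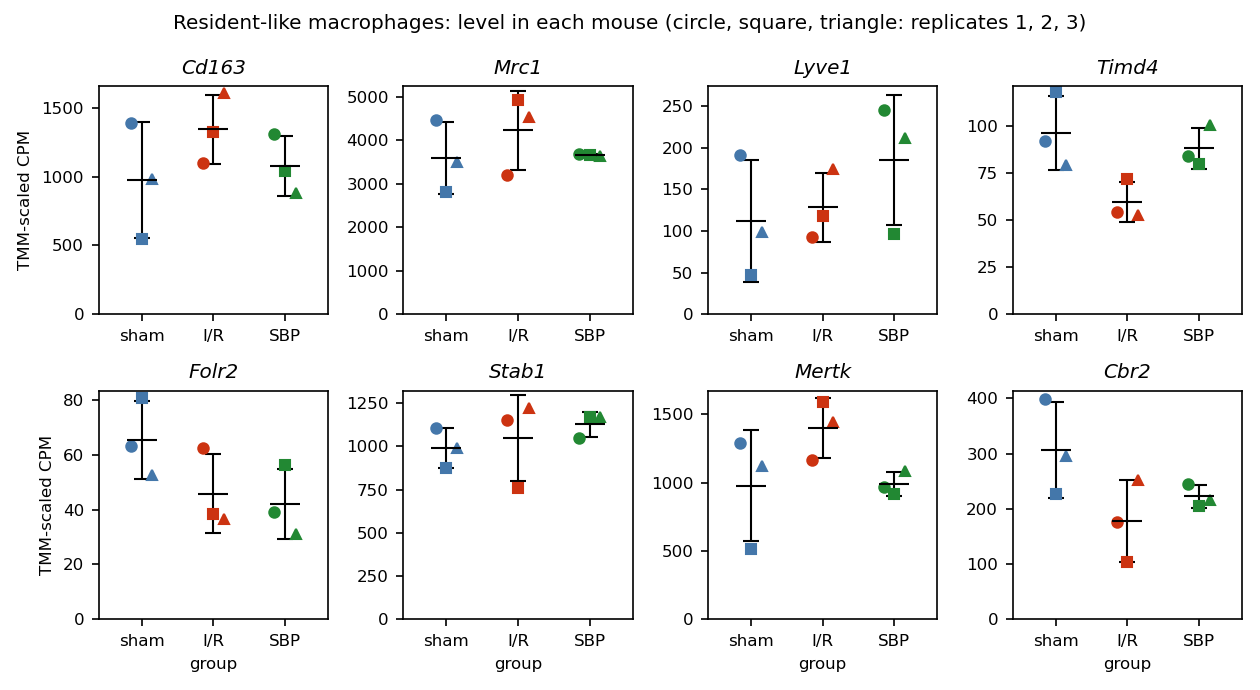
TMM-scaled CPM of the 8 genes in resident-like macrophages of each mouse (points; circle, square and triangle are replicates 1, 2 and 3), with the group mean and SD (bars). *Timd4* is lower in each I/R mouse than in each sham or SBP mouse, and the sham and I/R groups overlap for the other 7 genes. Nuclei of the subcluster led by cardiomyocyte transcripts, 35.4% of the sham class, are included.

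No member was called between SBP and I/R in resident-like macrophages either. Limma called 0 of 9690 genes (529 at an unadjusted p under 0.05), and 9.92% of all genes had groups without overlap. *Timd4* was higher in SBP by 0.56 on the log2 scale (95% interval 0.12 to 1.00, unadjusted p 0.0159, limma adjusted p 0.890), and *Mertk* was lower (log2 -0.49, 95% interval -1.11 to 0.12, limma adjusted p 0.921), both without overlap. For *Cd163* the difference was -0.32 (-0.96 to 0.32), for *Mrc1* -0.18 (-0.61 to 0.25) and for *Lyve1* 0.46 (-0.78 to 1.71). Against sham, SBP had 0 of 8 members called, where 2.48% of genes were called, and *Folr2* alone had an unadjusted p under 0.05 (log2 -0.65, limma adjusted p 0.260). Because the clusters behind the class differed between groups, cluster 1 was also fitted alone, a choice made after the data were seen. Cluster 1 differed between groups too, as nuclei that carried cardiomyocyte transcripts made up 66.8% of its sham nuclei but 1.89% of its I/R nuclei and 1.52% of its SBP nuclei. In cluster 1 as a whole *Timd4* was lower in each I/R mouse than in each sham mouse, with 111, 195 and 135 CPM in sham, 82.1, 94.1 and 53.0 in I/R, and 118, 110.2 and 135 in SBP (log2 -0.94 for I/R against sham, limma adjusted p 0.205). *Cbr2* (-0.86, limma adjusted p 0.179) and *Mertk* (0.67, limma adjusted p 0.234) were also without overlap between sham and I/R, as were 16% of all genes. No member was called in cluster 1, where 0.0264% of 7579 genes were called in I/R against sham and 4 members had an unadjusted p under 0.05. Cardiomyocyte markers summed to 5068 to 6648 class CPM in cluster 1 of sham mice, 2084 to 3588 in I/R and 2021 to 2463 in SBP. Without the nuclei that carried cardiomyocyte transcripts, sham replicate 2 kept 17 nuclei and was dropped from the fit, and *Timd4* differed by -0.41 (limma adjusted p 0.654), *Cbr2* by -1.06 (limma adjusted p 0.196) and *Mertk* by 0.46 (limma adjusted p 0.434) over the 2 sham mice left.

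**Figure D5:**
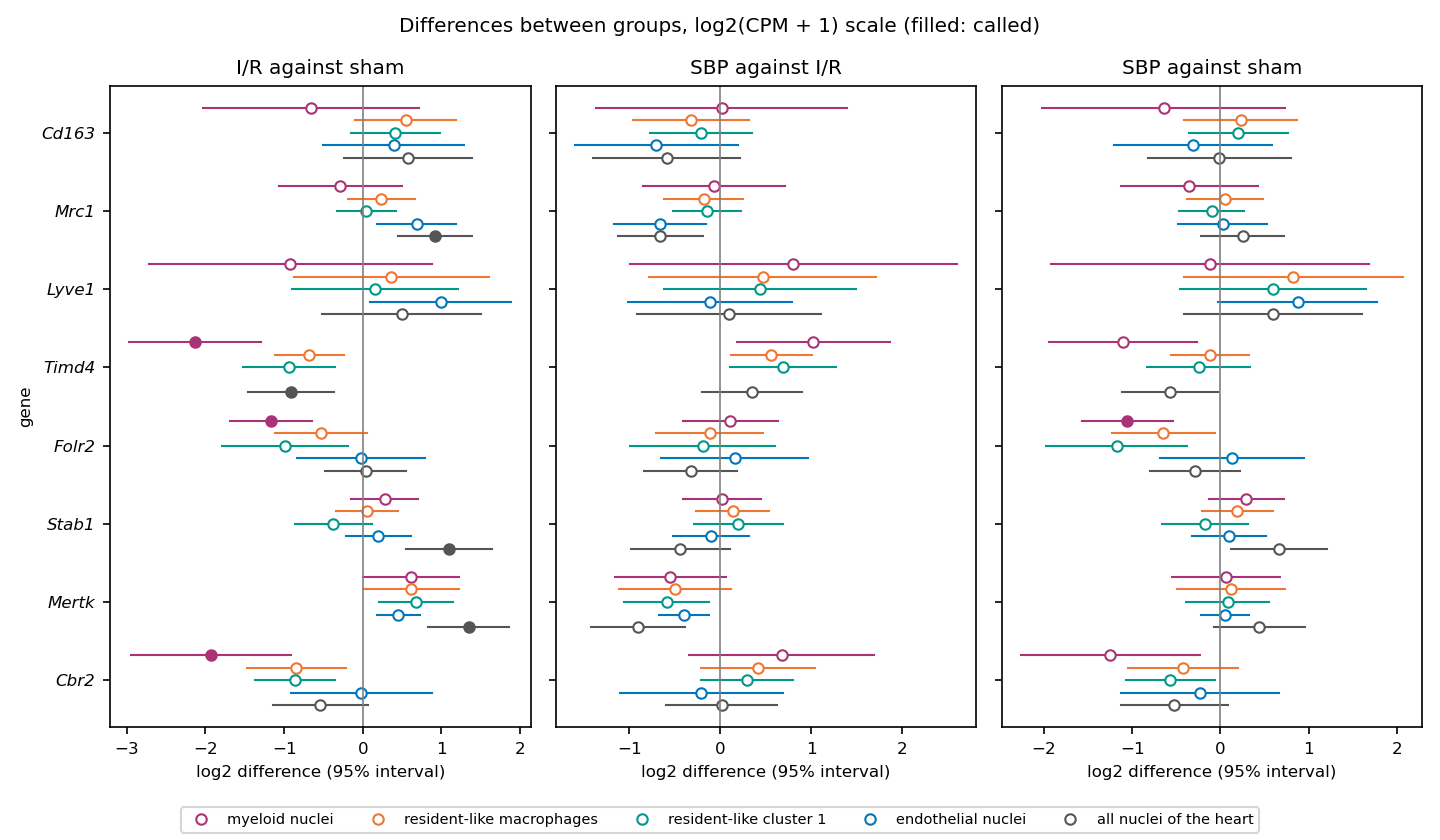
Log2 differences with 95% intervals (limma, log2(CPM + 1) scale) for each gene in 5 sets of nuclei, by comparison; filled points were called. Filled points are found for *Timd4*, *Folr2* and *Cbr2* in myeloid nuclei, for *Mrc1*, *Stab1*, *Mertk* and *Timd4* in all nuclei (I/R against sham) and for *Folr2* in myeloid nuclei (SBP against sham), and none in SBP against I/R.

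Summed over all nuclei of the heart, the picture was different. In such sums, more or fewer nuclei of a type and more or less RNA per nucleus cannot be told apart. *Mertk*, *Stab1* and *Mrc1* rose in I/R and *Timd4* fell, which was 4 of 8 members, while 10.7% of 16045 genes were called (5.95% higher, 4.8% lower). *Mertk* had 131, 92.3 and 146 CPM in sham, 391, 298 and 255 in I/R, and 144, 214 and 144 in SBP, a rise of 1.35 on the log2 scale (SE 0.23, limma adjusted p 0.0104). *Stab1* had 117, 120.2 and 119 CPM in sham, 384, 212 and 206 in I/R, and 162, 248 and 167 in SBP (log2 1.10, SE 0.24, limma adjusted p 0.0235). *Mrc1* had 314, 256 and 327 CPM in sham, 417, 771 and 547 in I/R, and 329, 401 and 338 in SBP (log2 0.91, SE 0.21, limma adjusted p 0.0263). *Timd4* had 7.26, 11.4 and 8.37 CPM in sham, 2.99, 5.99 and 4.11 in I/R, and 4.99, 5.23 and 6.87 in SBP (log2 -0.92, limma adjusted p 0.0418). The call of *Mertk* was kept under 18 of 18 alternatives, that of *Stab1* was lost without each sham mouse, that of *Mrc1* without each sham mouse or I/R replicate 2 and with the 6 mice alone, and that of *Timd4* held under 7 of 18. Beside these rises, the myeloid share of all nuclei was 11.5%, 27.1% ± 8.82 and 18.2% ± 8.74 for the 3 groups in the same order. In myeloid nuclei other than resident-like, *Stab1* and *Mertk* were called higher in I/R than in sham (log2 2.61 and 2.37), where 12.7% of genes were called and 8.41% were called higher, but those sham sums rested on 40, 81 and 46 nuclei. In sham 37.1% of these nuclei were cycling-like, 32.3% dendritic cell-like and 4.19% injury-like, while in I/R 55.4% were injury-like and 28.1% monocyte-like, so the difference sets unlike nuclei side by side. Against I/R, no member was called in SBP in all nuclei (limma called 0 of 16045 genes, 702 at an unadjusted p under 0.05). The other members overlapped between sham and I/R in all nuclei, with log2 differences of 0.58 for *Cd163* (95% interval -0.23 to 1.39), 0.49 for *Lyve1* (limma adjusted p 0.511), 0.04 for *Folr2* (-0.47 to 0.55) and -0.54 for *Cbr2* (-1.15 to 0.07). *Mertk* was lower in each SBP mouse than in each I/R mouse, as 8.4% of genes were without overlap in some direction (log2 -0.91, 95% interval -1.42 to -0.39, unadjusted p 0.00295, limma adjusted p 0.997). Against sham, 0 of 8 members were called in SBP, where 2.95% of genes were called.

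In endothelial nuclei, 7 of the 8 genes passed the filter on low values (*Timd4* did not) and none was called in I/R against sham, where 3.16% of 12221 genes were called. *Mrc1* had 137, 79.2 and 76.0 CPM in sham, 141, 149 and 166 in I/R, and 81.1, 125 and 85.4 in SBP (log2 0.69 for I/R against sham, limma adjusted p 0.133), and was called without sham replicate 1. *Mertk* had 181, 146 and 193 CPM in sham, 228, 245 and 236 in I/R, and 178, 179 and 179.6 in SBP (log2 0.45, limma adjusted p 0.0771). In cardiomyocyte-like nuclei, which should lack them, both genes were also highest in I/R, with *Mrc1* at 27.8, 47.1 and 28.4 class CPM against 27.0, 20.5 and 21.7 in sham, and *Mertk* at 21.7, 18.2 and 22.8 against 17.2, 16.9 and 12.7. The part of free RNA in the endothelial values was not tested. *Lyve1* had 51.5, 17.0 and 30.6 CPM in sham endothelial nuclei, 45.9, 93.4 and 51.8 in I/R, and 83.0, 45.0 and 46.9 in SBP, with overlap (log2 0.99 for I/R against sham, limma adjusted p 0.236). In lymphatic-like nuclei, *Lyve1* had 239, 117 and 193 CPM in sham, 308, 297 and 272 in I/R, and 420.2, 267 and 300.0 in SBP. Both injured groups lay above sham without overlap, and the test was not passed (log2 0.73, limma adjusted p 0.107 for I/R; 0.88, limma adjusted p 0.0640 for SBP). *Stab1* in the same nuclei had 370.2, 472 and 580.1 CPM in sham, 754, 737 and 588 in I/R, and 659.6, 617 and 619 in SBP (log2 0.56 for I/R against sham, limma adjusted p 0.113). Of the 5062 genes tested in these nuclei, 3.16% were called in I/R and 1.62% in SBP, each against sham, groups had no overlap for 18.3% and 17.4%, and 4 of the 8 members could be tested. In fibroblasts, *Mertk* was the 1 member of 6 tested that was called in I/R against sham, where 11.5% of genes were called and 6.53% were called higher, with 48.5, 58.6 and 48.7 class CPM in sham and 92.8, 70.3 and 101.6 in I/R (log2 0.67, SE 0.17, limma adjusted p 0.0256). In cardiomyocytes *Mertk* had 17.6, 15.4 and 12.96 CPM in sham and 22.2, 17.3 and 22.4 in I/R (log2 0.41, limma adjusted p 0.410), and the part of free RNA in the fibroblast values was not tested.

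The mean of *Mertk* was lower in SBP than in I/R in each of the 15 sets of nuclei fitted, some of which hold others, and it passed the test in none. The median log2 difference of the members tested, *Mertk* included, was also negative in most sets. It was positive in myeloid nuclei (0.06), resident-like macrophages (0.01) and resident-like cluster 1 (0.03). In injury-like macrophages *Mertk* had 1508, 1084 and 1641 CPM in I/R and 1173, 987 and 842 in SBP (log2 -0.49, 95% interval -0.95 to -0.02, limma adjusted p 0.983). In monocyte-like nuclei it had 519.6, 981 and 1043 CPM in I/R and 542, 761 and 437.5 in SBP (log2 -0.52, 95% interval -1.14 to 0.10). In endothelial nuclei, from the values above, the difference was -0.40 (95% interval -0.67 to -0.13, limma adjusted p 0.943). In cardiomyocytes, used above to gauge free RNA, it was -0.76 as well, and the part of free RNA in the other differences was not tested. All these nuclei came from the same 6 mice, so the values are not independent of each other. The ranges of the mice overlapped in injury-like and monocyte-like nuclei. In injury-like macrophages limma tested 6 members and called 0 of 7617 genes (0%, 310 at an unadjusted p under 0.05), in monocyte-like nuclei 4 members and 0 of 4437 genes (0%, 152 at an unadjusted p under 0.05), and in endothelial nuclei 7 members and 0 of 12221 genes (0%, 640 at an unadjusted p under 0.05). *Stab1* in injury-like macrophages had 1444, 1634 and 1729.8 CPM in I/R and 1615, 1307 and 1773 in SBP (log2 -0.04, 95% interval -0.45 to 0.37).

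Genes that act with the 8 members were followed from lists. Among ligands, bridging proteins, sheddases and relatives of the members, 12 of 22 passed the filter in myeloid nuclei. In I/R against sham 7 rose and 1 fell, where 17.4% of all genes were called, with a median log2 difference of 0.71 against 0.05 over all genes tested. *Hmox1*, the heme oxygenase that degrades heme taken up through CD163, rose from 16.0 ± 0.352 to 202 ± 118 CPM (log2 3.43, SE 0.33, limma adjusted p 1.26e-04). *Axl*, the TAM kinase related to *Mertk*, fell from 114 ± 11.4 to 37.5 ± 4.65 CPM (log2 -1.58, SE 0.19, limma adjusted p 2.89e-04). Haptoglobin (*Hp*) rose from 2.74 ± 2.08 to 69.5 ± 90.9 CPM, and the hyaluronan receptor *Cd44* from 173 ± 7.23 to 551 ± 354 CPM. Both had a wide spread in I/R.

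Of 13 tested genes among the other scavenger receptors, 3 rose in I/R in myeloid nuclei and 0 fell (median log2 0.13), a share near the 17.4% called among all genes. They were *Lrp1* (219.8 ± 23.5 to 735 ± 103 CPM), *Cd68* (26.7 ± 7.01 to 72.1 ± 22.3) and *Msr1* (264 ± 25.1 to 669.7 ± 341). Of 24 tested genes for the uptake of apoptotic cells, 8 rose and 1 fell (median 0.25), the rises including *Cd300lf*, a phosphatidylserine receptor, from 7.57 ± 3.56 to 429 ± 139.9 CPM, and the annexin *Anxa1* from 22.6 ± 11.6 to 83.7 ± 18.8 CPM. The gene that fell was *Axl*. Of 25 tested genes among other resident macrophage genes, 2 rose and 3 fell (median -0.40), again near that share. *Hpgd*, which degrades prostaglandins, fell from 405 ± 129.9 to 47.1 ± 28.5 CPM and the growth factor receptor *Csf1r* from 491 ± 60.3 to 325 ± 63.4, while *Pf4* rose from 45.8 ± 10.0 to 134 ± 51.4 and *Ninj1* from 31.5 ± 10.0 to 72.6 ± 17.9. Among 18 transcription factors of macrophage identity 4 rose and 3 fell (median -0.09), with *Irf4* falling from 28.4 ± 7.65 to 3.41 ± 2.35 CPM, *Mef2c* from 998 ± 245 to 330.2 ± 110.0 and *Maf* from 1080.2 ± 129.5 to 747 ± 101, and *Cebpb* rising from 65.4 ± 28.2 to 311 ± 107 and *Hif1a* from 78.9 ± 10.6 to 245 ± 109. *Maf* was named after its values were seen, because its motif was searched above. Of 19 injury macrophage genes 14 rose and 0 fell (median 2.99), and *Arg1* had no UMI in sham and 412 ± 286 CPM in I/R. That list holds markers used to name the injury-like clusters and was chosen with earlier results of these data known. Its count is therefore a description and no test.

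Within resident-like macrophages 3.37% of all genes were called in I/R against sham, against 17.4% in myeloid nuclei. In the first list 2 rose and 1 fell of 11 tested: *Hmox1* from 16.8 ± 2.43 to 129.9 ± 68.8 CPM, *Sparc* from 40.7 ± 7.41 to 88.7 ± 32.7, and *Axl* from 116 ± 17.2 down to 55.3 ± 7.72. *Vsig4*, a complement receptor of resident macrophages, was the 1 of 13 other scavenger receptors and the 1 of 25 other resident genes that was called, from 24.5 ± 2.20 to 81.2 ± 39.2 CPM. For the uptake of apoptotic cells 2 rose and 1 fell of 23, with *Cd300lf* from 2.48 ± 1.20 to 68.9 ± 43.0 CPM and the lipid exporter *Abca1* from 355 ± 87.6 to 679.7 ± 175. *Irf4* was the 1 of 18 transcription factors called (29.1 ± 7.84 to 6.26 ± 5.79 CPM). Of 16 injury genes 10 rose, among them *Spp1* from 0.341 ± 0.591 to 249 ± 326 CPM and *Arg1* from 0 to 62.3 ± 62.7. Some of these genes served to name the injury-like clusters, so their presence here is a measured property of the class as drawn. In endothelial nuclei 10 of 18 injury genes were also called higher in I/R than in sham (median log2 2.10). There 3.16% of all genes were called. *Spp1*, *Arg1*, *Hmox1* and *Cd300lf* were among the genes called higher in both sets of nuclei. The part of free RNA in these rises was not tested. In SBP against sham, 5 of 12 genes of the first list were called in myeloid nuclei (4 higher, 1 lower, where 12.4% of all genes were called) and 2 of 11 in resident-like macrophages (2.48% of all genes), both higher: *Hmox1* (16.8 ± 2.43 to 88.5 ± 37.2 CPM) and *Cd44* (139 ± 15.7 to 339 ± 22.8). In SBP against I/R, 0 genes of any list were called in either set of nuclei.

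Across the 15 named types and subtypes, the genes whose mean log2 level resembled each member most were taken from the 10906 genes tested in myeloid nuclei. The types share libraries and differ in depth, and Pearson's r is given as a description. *Cd163* resembled *Clec10a* (r 0.973), *Folr2* (0.970) and *Cbr2* (0.947), and *Folr2* resembled *Clec10a* (0.980), *Cd163* (0.970) and *Slc13a3* (0.954). *Cbr2* was closest to *Gm10134* (0.951), *Clec10a* (0.948) and *Cd163* (0.947). *Mrc1* was closest to *F13a1* (0.946), *Atp6v0b* (0.946) and *Hpgds* (0.943), *Timd4* to *Gm26714* (0.952), *Mmp13* (0.929) and *Hrh1* (0.924), *Stab1* to *Mpp1* (0.915), *Dab2* (0.907) and *Maf* (0.890), and *Mertk* to *Stx12* (0.937), *Oas2* (0.915) and *Rb1* (0.912). *Lyve1* had the lowest values, with *Pros1* (0.849), *Klhdc10* (0.830) and *Selenop* (0.824). Among the members themselves r ran from 0.970 for *Cd163* with *Folr2* down to 0.351 for *Lyve1* with *Timd4* and 0.314 for *Lyve1* with *Folr2*, the lowest.

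In the GRCm38 annotation, *Cd163* (ENSMUSG00000008845) lies at chr6:124304656-124330527, *Mrc1* at chr2:14229392-14332057, *Lyve1* at chr7:110850607-110863239, *Timd4* at chr11:46810800-46844332, *Folr2* at chr7:101839988-101857194, *Stab1* at chr14:31139013-31168641, *Mertk* at chr2:128698956-128802894 and *Cbr2* at chr11:120729489-120732114. All 8 are protein coding. *Stab1* shares 112 bases with *Nt5dc2* and *Mertk* 2435 bases with the antisense gene *Gm14011*, both on the opposite strand, and *Mrc1* contains *Mir511* and *Mertk* contains *Gm23172* on the same strand.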

How the data were processed

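Single-nucleus RNA was measured in 9 hearts (10x Chromium 3′). Per the study's methods, the authors trimmed reads with fastp, counted UMIs with Cell Ranger against mm10, down-sampled libraries and removed nuclei of 200 genes or fewer, nuclei of 10% or more mitochondrial UMIs and mitochondrial genes. The submitters' processing notes name Cell Ranger 4.0, STAR, Seurat 3.2.0 and GRCm38, while the study's methods give later versions of Cell Ranger and Seurat. The values the authors deposited are the natural log of 1 plus UMIs scaled to 10000 per nucleus. UMIs were recovered from the smallest step of each nucleus (at least 99.9995% of values lay within 0.1 of a whole number). limma on a log scale was the planned test.

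Nuclei were clustered without the 8 genes in scanpy 1.11.5 (Leiden, resolution 0.3, 2000 variable genes, 30 components; myeloid and endothelial nuclei again at 0.4) and named from markers. The margin required between the best and second type and the rule on genes of other types were set after the data were seen. Scrublet marked 78 nuclei (0.159%), which were removed; at that share the caller was taken not to have worked.

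UMIs were summed per mouse, scaled with TMM factors and tested with limma 3.58.1 (trend, robust) over all 9 mice with at least 20 nuclei each. Genes entered with 15 UMIs in all and, in 3 mice or more, the CPM that 10 UMIs give at the median library size. Differences are on the log2(CPM + 1) scale, which understates changes of low genes. The computation was tested on simulated data. Percentages of UMIs or nuclei over a class pool mice and carry no error. The genes named are the 8 members, the 3 genes most like each, and up to 4 called genes of largest change per list and contrast. The members and lists were chosen with earlier results of these data known. The PU.1 and MEF2 motifs were rewritten after a first search of other letters. A replicate block, fits of 6 mice, leaving out each mouse, other scalings, pseudocounts, filters, doublet rules and cell type rules were tried, and a fit without nuclei that carried cardiomyocyte transcripts was added after the data were seen.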

Additional observations from a re-analysis of the deposited data

How the results depend on the processing

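In myeloid nuclei (I/R against sham) the call of *Timd4* was kept under 22 of 22 alternatives, with adjusted p of 0.00147 to 0.0204, that of *Folr2* under 21 (0.00463 to 0.0732) and that of *Cbr2* under 18. One alternative, chosen after seeing the data, left out the nuclei with cardiomyocyte transcripts: 1 member was then called in I/R against sham, against 3, and 0 in SBP against sham, against 1, while 1669 and 1223 genes were called. That alternative also changed the mix of resident-like clusters in sham. *Timd4* and *Folr2* had the fewest UMIs, 831 and 838 in all. Of the 8 members, the number called in myeloid nuclei for SBP against sham was 1, and it was 2 with a replicate block, 3 with only the 6 mice compared, 0 with cell types from marker scores and between 0 and 2 when single mice were left out. In resident-like macrophages 0 became 2 (I/R against sham) and 1 (SBP against sham) with marker scores, and 0 to 1 without single mice in I/R against sham. In endothelial nuclei it was 0 to 1 without single mice. In all nuclei, the 4 members called in I/R against sham became 2 with the 6 mice and 1 to 3 without single mice, and the 0 called in SBP against sham became 1 and 0 to 1. In cluster 1, 0 became 1 with voom weights (I/R against sham) and 1 with the 6 mice (SBP against sham). 

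The sample labels do not say that replicate numbers pair the mice. In myeloid nuclei, deviations of same-numbered sham and I/R mice had correlations of -0.144, -0.0873 and 0.141. Replicate 3 was positive for each pair of groups (0.130 for sham with SBP and 0.201 for I/R with SBP), while replicates 1 and 2 had both signs. So few values cannot decide whether mice were paired. With the block, 1760 genes were called in myeloid nuclei in I/R against sham, against 1894, with 3 members, and 4 members were called in all nuclei. 

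The difference in the resident-like share of myeloid nuclei, in percentage points, was -57.2 for I/R against sham, and -26.3 with marker scores or -26.7 with finer subclusters. For SBP against sham it was -45.6, and -20.2 or -15.4. Of all nuclei it was -2.49 and became 0.950 or 0.846 (I/R against sham), and -3.18 became 0.0690 or 0.261 (SBP against sham), so the direction was not kept. Without the nuclei with cardiomyocyte transcripts the differences of all nuclei were 0.646 and -0.029. Those of myeloid nuclei were then -53.3 for I/R and -41.9 for SBP against sham (exact permutation p 0.1 for each).

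The number of genes called against sham was 1894 for I/R in myeloid nuclei (1229 without sham replicate 2, 1239 without I/R replicate 2) and 1357 for SBP (580 without SBP replicate 2 to 1667 without I/R replicate 2). In resident-like macrophages it was 327 for I/R (156 with the 6 mice, 491 with marker scores, from 76, without sham replicate 2, up to 803, which left out I/R replicate 1) and 240 for SBP (540 with the 6 mice, from 61, without sham replicate 2, up to 415, which left out I/R replicate 2). In all nuclei it was 1724 for I/R (981 with the 6 mice, from 377, without sham replicate 3, up to 2589, which left out I/R replicate 3) and 474 for SBP (1659 with the 6 mice, 197 with voom weights, 233 with the block, 301 without the filter, from 40, without sham replicate 3, up to 1049, which left out I/R replicate 1). In endothelial nuclei it was 386 for I/R (253 with the 6 mice, from 84, without sham replicate 2, up to 651, which left out I/R replicate 3), and in cluster 1 it was 2 for I/R (76 with voom weights, 0 without the nuclei with cardiomyocyte transcripts, 0 to 170 without single mice). For SBP against I/R, without I/R replicate 1, 10 genes were called in myeloid nuclei and 34 in resident-like macrophages. The share of called genes that were lower in I/R was 47.1% in myeloid nuclei (57.9% with voom weights), 53.8% in resident-like macrophages (64.2% with voom weights) and 44.7% in all nuclei (28.5%, and 32.5% against 50.4% for SBP, with total counts in place of TMM factors, which moved I/R against sham by -0.11 on the log2 scale there).

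The direction of members that were not called also turned in places, given here as log2 differences. With cell types from marker scores the values were *Lyve1* 0.0058 from -0.12 in myeloid nuclei (SBP against sham), *Lyve1* -0.31 from 0.36, *Stab1* -0.012 from 0.054 in resident-like macrophages (I/R against sham), *Mertk* -0.030 from 0.12 in resident-like macrophages (SBP against sham), *Cbr2* 0.071 from -0.019 in endothelial nuclei (I/R against sham). Without the nuclei with cardiomyocyte transcripts the values were *Lyve1* 0.46 from -0.12 in myeloid nuclei (SBP against sham), *Timd4* 0.48 from -0.12 in resident-like macrophages (SBP against sham), *Mrc1* -0.090 from 0.047, *Lyve1* -0.29 from 0.16 in resident-like cluster 1 (I/R against sham), *Cd163* -0.16 from 0.20, *Timd4* 0.26 from -0.25, *Mertk* -0.13 from 0.086 in resident-like cluster 1 (SBP against sham). With finer subclusters the values were *Timd4* 0.082 from -0.68 in resident-like macrophages (I/R against sham), *Timd4* 0.64 from -0.12, *Cbr2* 0.0085 from -0.43 in resident-like macrophages (SBP against sham). With total counts the values were *Mrc1* -0.013 from 0.024 in endothelial nuclei (SBP against sham), *Cbr2* -0.0040 from 0.015 in all nuclei (SBP against I/R), *Cd163* 0.072 from -0.013 in all nuclei (SBP against sham). With a pseudocount of 5 the values were *Folr2* 0.0033 from -0.025, *Cbr2* 0.0049 from -0.019 in endothelial nuclei (I/R against sham), *Cbr2* -0.00086 from 0.015 in all nuclei (SBP against I/R). With voom weights the values were *Cbr2* 0.064 from -0.019 in endothelial nuclei (I/R against sham). With marked nuclei kept the values were *Mrc1* -0.011 from 0.024 in endothelial nuclei (SBP against sham). With the highest-scoring nuclei removed the values were *Cbr2* 0.082 from -0.019 in endothelial nuclei (I/R against sham). With the members kept for clustering the values were *Cbr2* 0.036 from -0.019 in endothelial nuclei (I/R against sham). When single mice were left out, the ranges that crossed 0 were *Mrc1* -0.52 to 0.16 in myeloid nuclei (I/R against sham), *Cd163* -0.61 to 0.45, *Mrc1* -0.52 to 0.17, *Folr2* -0.062 to 0.29, *Stab1* -0.22 to 0.14 in myeloid nuclei (SBP against I/R), *Lyve1* -0.61 to 0.59, *Mertk* -0.35 to 0.30 in myeloid nuclei (SBP against sham), *Lyve1* -0.17 to 0.83, *Stab1* -0.088 to 0.26 in resident-like macrophages (I/R against sham), *Folr2* -0.35 to 0.13, *Stab1* -0.070 to 0.26 in resident-like macrophages (SBP against I/R), *Cd163* -0.16 to 0.51, *Mrc1* -0.14 to 0.20, *Timd4* -0.25 to 0.012, *Mertk* -0.31 to 0.34 in resident-like macrophages (SBP against sham), *Folr2* -0.13 to 0.29, *Cbr2* -0.26 to 0.38 in endothelial nuclei (I/R against sham), *Lyve1* -0.39 to 0.20, *Folr2* -0.16 to 0.29, *Stab1* -0.31 to 0.054, *Cbr2* -0.61 to 0.0054 in endothelial nuclei (SBP against I/R), *Mrc1* -0.17 to 0.30, *Stab1* -0.016 to 0.22, *Mertk* -0.069 to 0.14 in endothelial nuclei (SBP against sham), *Folr2* -0.11 to 0.20 in all nuclei (I/R against sham), *Lyve1* -0.30 to 0.47, *Cbr2* -0.33 to 0.26 in all nuclei (SBP against I/R), *Cd163* -0.33 to 0.15 in all nuclei (SBP against sham), *Mrc1* -0.14 to 0.14, *Lyve1* -0.37 to 0.58 in resident-like cluster 1 (I/R against sham), *Folr2* -0.48 to 0.19, *Stab1* -0.10 to 0.36 in resident-like cluster 1 (SBP against I/R), *Cd163* -0.13 to 0.40, *Mertk* -0.16 to 0.24 in resident-like cluster 1 (SBP against sham).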
